A study of Mus musculus with 5 samples.

Results

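The alpha subunits of heterotrimeric G proteins were followed in the thymus of ZAS3-null and wild-type mice. The group held 10 of the 16504 genes that could be named on the array. These are Gnai1, Gnai2, Gnai3, Gnao1 and Gnaz of the inhibitory Gi/o class, Gnaq and Gna11 of the Gq class, Gna12 and Gna13 of their own class, and Gnas, which encodes the stimulatory subunit. The genes were taken by their symbols. Gnai1 was selected on its measured log2 ratios, which were positive and steady over the arrays, so its ratios are a description and carry no test. The other 9 were taken as its family.

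Total RNA of whole thymus was compared on 5 Agilent arrays of 60-base probes in 2 colours, per the labels and the series design text. Each array set a ZAS3-null thymus beside a wild-type thymus, the mice being littermates matched for sex and age and 6 to 8 weeks old. ZAS3 is the protein of Hivep3, a large zinc finger factor that binds kappaB-like DNA. The strain, the allele and the deleted part of the gene are not given in the sources used here, and the design text speaks of thymocytes where the sample labels speak of whole thymus.

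A heterotrimeric G protein couples a cell-surface receptor to enzymes inside the cell. An activated receptor makes the alpha subunit exchange GDP for GTP, and the alpha subunit and the beta-gamma pair then act on their effectors until the bound GTP is split. Gi/o subunits restrain adenylyl cyclase, Gs stimulates it, Gq and G11 activate phospholipase C beta, and G12 and G13 act through exchange factors for the GTPase RhoA. Chemokine and sphingosine-1-phosphate receptors that move thymocytes through the thymus and out of it couple to Gi, of which Gnai2 and Gnai3 are the main forms in lymphocytes.

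Each value is a log2 ratio of the channels of an array. Which way it points is not settled: the sample labels give the ZAS3-null RNA the dye Cy5, and the design text gives it Cy3. A positive ratio likely stands for more RNA in the ZAS3-null thymus, going by the order in the sample titles. Dyes were not exchanged between arrays, so a dye effect of a probe and an effect of genotype cannot be told apart. The table holds no brightness, so no gene's level is known, the labelled tissue could not be checked against the levels of its markers, and the number of arrays limits the precision. In whole tissue, fewer cells of a type and less RNA per cell cannot be told apart. Hivep3 itself, the targeted gene, gave a mean log2 ratio of 0.08 ± 0.07 as deposited (SD, n = 5), positive on 4 of 5 arrays (limma adjusted p = 0.37). After the position correction described next it gave 0.17 ± 0.09, positive on 5 of 5 arrays (adjusted p = 0.141). A positive ratio of the targeted gene goes against the likely reading above, in which positive is more RNA in the null, although neither value passed and the part of the gene that its probes read, deleted or not, is not given in the sources used here. The direction therefore stays unsettled for every value below.

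Some facts of the slide touch every value. Gene names follow an order in which the rows and columns of the slide are exchanged, since the deposited probe numbers do not pair values with genes. Of the 8 turns and mirrors of the slide, only this one placed 0 of 256 very low spots on named genes, against 173 to 215 for the others. In the same order the spots of a single gene differed least: over 48 genes with 10 or more spots, their SD had a median of 0.0983, against 0.265 to 0.314. Different probes of a gene with fewer spots correlated at 0.107 over 1428 pairs, a description across probes that share arrays. The ratios also rise across the slide on every array, from medians of -0.251 to -0.111 in the first 10 columns to 0.227 to 0.31 in the last 10. Values are therefore given as deposited and again less the median of a square of 21 by 21 spots around each spot, called position-corrected below. Over the 48 genes, the median SD among spots of one gene was 0.176 to 0.233 as deposited on arrays 2 to 5 and 0.0856 to 0.105 after correction. On array 1 the correction raised it, from 0.184 to 0.257, the highest of the 5 arrays.

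The promoters of the members at the ends of the range are printed first, Gnai1 with the highest mean ratio and Gna11 with the lowest. Each is the 250 bases before the start of the gene in RefSeq's annotation of GRCm38.p6, read 5′ to 3′ on the gene's own strand. Capitals mark the GC box, GGGCGG or its complement CCGCCC. Gnai1 lies on the minus strand at chr5:18360414-18360663 and Gna11 on the minus strand at chr10:81545163-81545412.
Gnai1: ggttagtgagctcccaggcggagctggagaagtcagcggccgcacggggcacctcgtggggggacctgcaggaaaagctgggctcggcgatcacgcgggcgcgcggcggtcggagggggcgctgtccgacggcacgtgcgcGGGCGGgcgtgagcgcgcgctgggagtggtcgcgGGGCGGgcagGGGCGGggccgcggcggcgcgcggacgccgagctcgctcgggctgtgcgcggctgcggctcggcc
Gna11: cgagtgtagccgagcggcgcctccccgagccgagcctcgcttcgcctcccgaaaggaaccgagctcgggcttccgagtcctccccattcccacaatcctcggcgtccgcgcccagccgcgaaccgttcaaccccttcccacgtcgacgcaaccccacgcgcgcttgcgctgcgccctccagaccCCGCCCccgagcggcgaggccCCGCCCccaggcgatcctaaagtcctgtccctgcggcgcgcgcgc

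The Gnai1 window held 3 GC boxes and the Gna11 window 2, on a background of 32.7% of 32851 windows of the same length with at least 1. Neither window held a kappaB consensus (3.9% of all windows), the recombination signal heptamer CACAGTG (5.52%), the cAMP response element TGACGTCA (1.55%) or TATAAA (12.4%), searched on both strands. The table held windows for 8 of the 10 genes, with 11 windows in all because Gnas has 4 starts, and none of the 11 matched the kappaB consensus. Gnai2 and Gnaz had no entry. Both printed windows are rich in G and C, with 79.2% for Gnai1 and 73.2% for Gna11, against a median of 52.4% over all windows. A match or its lack describes these letters only.

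Gnai1, at chr5:18265135-18360413 in GRCm38.p6, encodes an inhibitory alpha subunit that restrains adenylyl cyclase. As deposited, its log2 ratios on arrays 1 to 5 were 0.57, 0.51, 0.45, 0.49 and 0.56, with a mean of 0.51 ± 0.05 (SD, n = 5), or 1.43-fold. After position correction they were 0.61, 0.67, 0.51, 0.50 and 0.56, with a mean of 0.57 ± 0.07, or 1.48-fold. All 5 ratios were positive on both scales, as were those of 16.7% of all named genes as deposited and 11.7% after correction. These are the values by which Gnai1 was picked, so nothing is read from that share.

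The study's design text asks that a gene change 1.5-fold or more on 4 of its arrays. Gnai1 reached 1.5-fold on 0 arrays as deposited and on 2 after correction, and so did not meet that criterion on either scale. Of all named genes, 0.406% met it on the positive side as deposited and 0.0485% after correction. Its mean was the 367th highest of 16504 named genes as deposited and the 19th highest after correction. Its SD was smaller than that of all but 182 of them as deposited and all but 638 after correction, where the median SD of a gene was 0.19 and 0.18.

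Gnai1 was read by 1 probe, in row 55 of 215 and column 59 of 105, near the middle of the slide's width, where the column median of all spots is close to 0. The medians of the 8 spots that touch it ran from -0.13 to 0.10 over the arrays after correction. Gnai1 lay above all 8 on arrays 1, 2, 4 and 5, and on array 3 the highest of them had 0.52 against 0.51 for Gnai1. Over the arrays, the corrected means of the 8 spots ran from -0.19 to 0.32. With no probe sequence or brightness, binding of related transcripts by this probe was not tested.

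**Figure D1:**
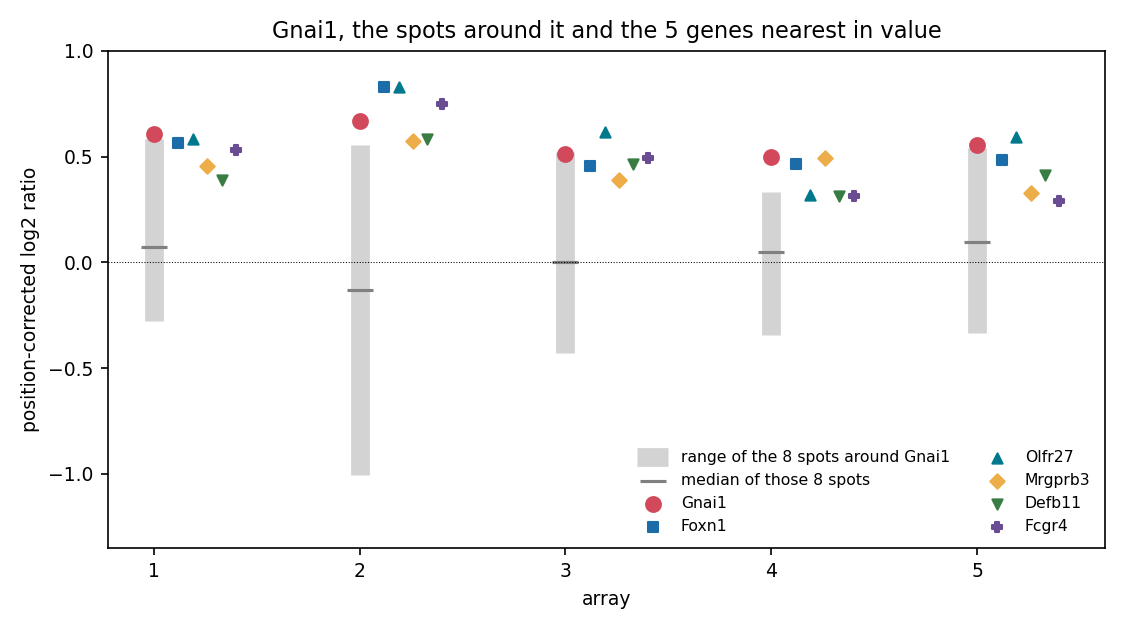
Position-corrected log2 ratio (vertical axis) of Gnai1 (red circles) on each of the 5 arrays (horizontal axis), with the range (grey bars) and median (grey dashes) of the 8 spots around it and the values of the 5 genes nearest to it. Gnai1 stays between 0.50 and 0.67, while the medians of the surrounding spots stay between -0.13 and 0.10.

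The 5 named genes nearest to Gnai1 were found by the root mean square difference of the corrected log2 ratios over the 5 arrays. Foxn1, which encodes a transcription factor that thymic epithelium needs to form, was the nearest, at 0.09, with ratios of 0.56, 0.83, 0.45, 0.46 and 0.48. It was followed by the odorant receptor gene Olfr27 (0.12), the Mas-related receptor gene Mrgprb3 (0.14), the defensin gene Defb11 (0.15) and the Fc receptor gene Fcgr4 (0.15). Each of the 5 was read by 1 probe, and Olfr27, Mrgprb3, Defb11 and Fcgr4 lay in columns 90 to 103 with higher means as deposited, from 0.58 to 0.90. The other 9 alpha subunit genes lay at distances of 0.46 (Gna12) to 0.91 (Gna11). Likeness over 5 arrays that share a dye layout is a description of these arrays.

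**Figure D2:**
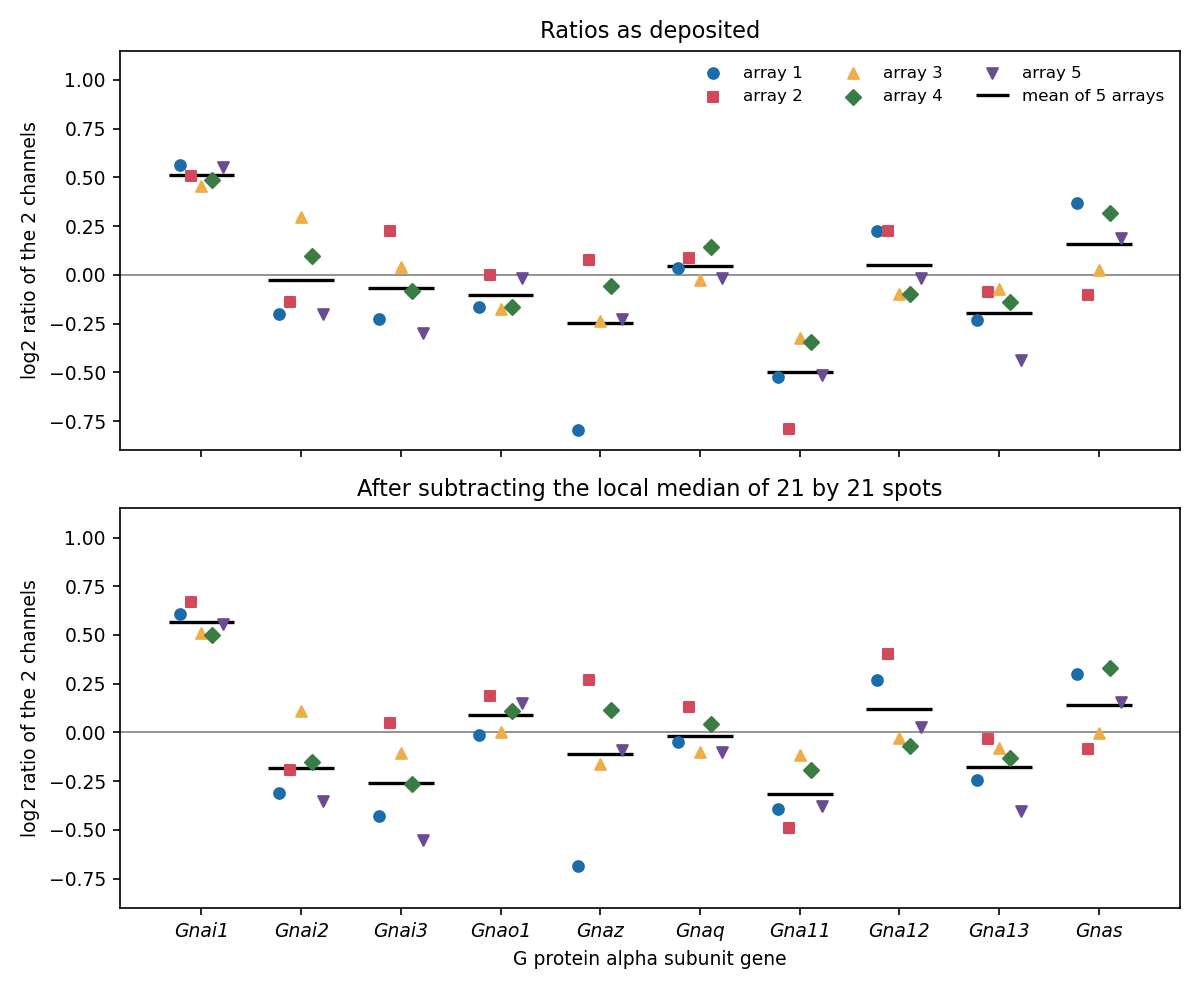
Log2 ratio of the 2 channels (vertical axis) for each of the 10 alpha subunit genes (horizontal axis), as deposited (top) and after position correction (bottom). Symbols are the 5 arrays and black bars their mean. Gnai1 is positive on every array with a mean of 0.51 as deposited, Gna11 is negative on every array with a mean of -0.50, and 6 of the other 9 genes had a mean below 0.

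Among the other 9 genes, as deposited, limma called 0 positive and 1 negative at an adjusted p under 0.05, where it called 24.8% of all named genes (12% positive and 12.9% negative). After correction it called 0 of the 9, where it called 2.91% of all named genes (0.612% positive and 2.3% negative), with 3 of the 9 at an unadjusted p under 0.05. That threshold took 27% of all named genes after correction and 40.3% as deposited. Their median log2 ratio was -0.07 as deposited and -0.11 after correction, beside medians of -0.03 and -0.01 over all named genes. The mean was below 0 for 6 of the 9 on either scale. None of the 9 met the 1.5-fold criterion of the design text, which 0.866% of all named genes met in either direction as deposited and 0.242% after correction. In the order of corrected means, the values of neighbouring genes overlapped among all 9. The gap between neighbours exceeded the larger of their SDs only for Gnao1 and Gnaq, by 0.103 against 0.101.

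Gnai2 and Gnai3, the inhibitory subunits through which chemokine receptors of lymphocytes mainly signal, had deposited means near 0. Gnai2 had -0.20, -0.14, 0.30, 0.10 and -0.20 on arrays 1 to 5, with a mean of -0.03 ± 0.22 (limma adjusted p = 0.838, 95% interval -0.25 to 0.20). Gnai3 had -0.23, 0.23, 0.04, -0.08 and -0.30, with a mean of -0.07 ± 0.21 (adjusted p = 0.606, interval -0.29 to 0.15). Both genes went either way on different arrays as deposited. Their probes lay in columns 81 and 94, where the surrounding spots are positive, and the correction moved both down. The corrected Gnai2 values were -0.31, -0.19, 0.11, -0.15 and -0.35, with a mean of -0.18 ± 0.18 (adjusted p = 0.209). The corrected Gnai3 values were -0.43, 0.05, -0.11, -0.27 and -0.55, with a mean of -0.26 ± 0.24 (adjusted p = 0.152). Each was negative on 4 of 5 arrays, and neither passed. The median of all spots in column 81, that of Gnai2, stayed at -0.07 after correction, against 0.01 in column 94. With column and row medians subtracted instead of the square, Gnai2 had -0.08 (limma adjusted p = 0.598) and Gnai3 -0.26 (0.15). The size of the Gnai2 mean thus changed with the kind of correction, while its sign stayed negative. With windows of 11 and 41 spots it was -0.16 and -0.19.

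Thymocyte markers also differed from array to array. The median corrected log2 ratio of 7 measured markers of 8 listed was -0.32, 0.06, -0.05, -0.30 and -0.31 on arrays 1 to 5. For Gnai3, as for that median, array 2 was the highest, array 3 the next and arrays 1, 4 and 5 the lowest. For Gnai2 array 3 was the highest and arrays 1 and 5 the lowest. Of the 7 markers, Rag1 had the lowest mean (-0.61) and Ptcra the highest (0.33). As deposited, limma called 2 of the 7 positive and 3 negative, beside 12% and 12.9% of all named genes. After correction it called 0, beside 2.91%, with 5 at an unadjusted p under 0.05, beside 27%. The part of thymocyte number or maturity in the ratios of Gnai2 and Gnai3 was not tested.

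**Figure D3:**
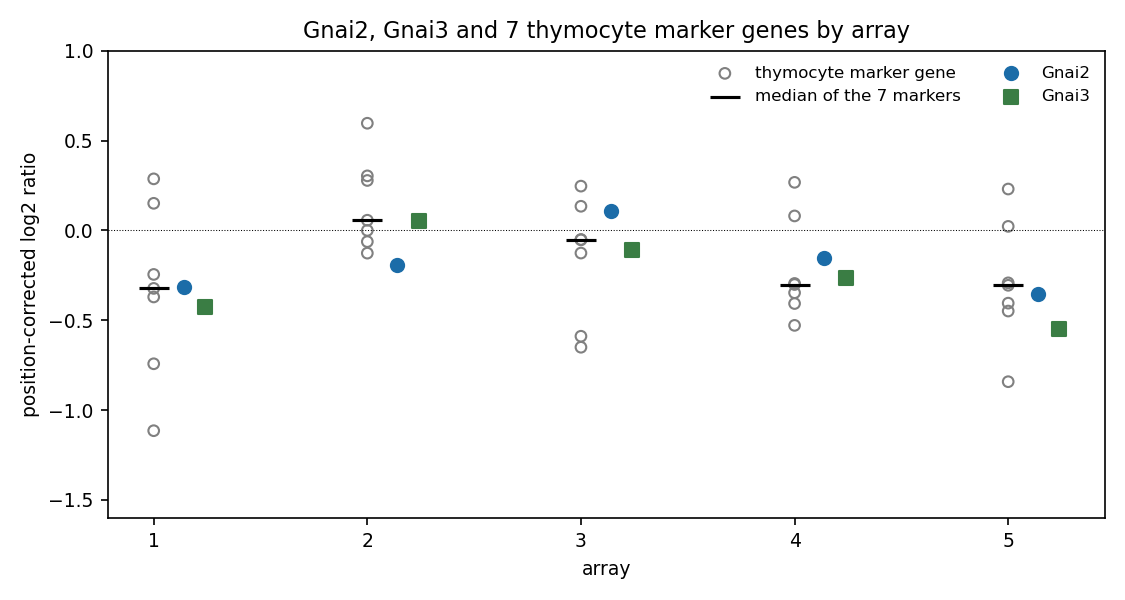
Position-corrected log2 ratio (vertical axis) of Gnai2 (blue circles), Gnai3 (green squares) and 7 thymocyte marker genes (open circles, with black bars for their median) on each array (horizontal axis). The marker medians of -0.32, -0.30 and -0.31 on arrays 1, 4 and 5 lie below those of arrays 2 and 3, and Gnai3 has its 3 lowest values on the same arrays.

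Gnao1 and Gnaz, the remaining members of the Gi/o class, are best known from neurons, and Gnaz also from platelets. Gnao1 had a mean of -0.10 ± 0.09 as deposited and 0.09 ± 0.09 after correction (limma adjusted p = 0.252 and 0.392), so its sign turned with the correction of its probe in column 10. Gnaz had means of -0.25 ± 0.33 and -0.11 ± 0.36 (adjusted p = 0.196 and 0.613), the widest spread of the 10 genes. Array 1 lay farthest out, with -0.79 as deposited, while the other arrays had -0.24 to 0.08. Both probes of Gnaz were low on array 1, with -0.73 and -0.86 as deposited. On array 5 they did not agree, with -0.64 for the probe in column 3 and 0.19 for that in column 34. Gnaz lies within Rsph14 in the annotation, whose own mean was 0.01 as deposited.

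Gna11 and Gnaq encode the closely related subunits that activate phospholipase C beta. Gna11 had -0.53, -0.79, -0.32, -0.34 and -0.52 on arrays 1 to 5, a mean of -0.50 ± 0.19, or 1.41-fold. It was negative on 5 of 5 arrays, as were 20.5% of all named genes as deposited, and it was the member that limma called (adjusted p = 0.0114). Without array 5 that call was lost (adjusted p = 0.056). Its probe lay in column 38, where the surrounding spots were negative. After correction the values were -0.40, -0.49, -0.11, -0.19 and -0.38, and the mean of -0.31 ± 0.16 did not pass (adjusted p = 0.0672), although all 5 stayed negative. The 95% interval of the corrected mean ran from -0.50 to -0.13.

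Gnaq had means near 0, of 0.05 ± 0.07 as deposited (adjusted p = 0.589, interval -0.09 to 0.19) and -0.02 ± 0.10 after correction (adjusted p = 0.887, interval -0.17 to 0.14). Its deposited interval was the narrowest of the 9. The difference between Gna11 and Gnaq was not tested. Of the 4 phospholipase C beta genes, on which both subunits act, limma called 0 on either scale. It called 24.8% of all named genes as deposited and 2.91% after correction. On either scale 0 of the 4 had an unadjusted p under 0.05, beside 40.3% and 27% of all named genes.

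Gna12 and Gna13 encode the subunits that act on RhoA through exchange factors. Gna12 had 0.23 on arrays 1 and 2 and -0.10, -0.10 and -0.01 on arrays 3, 4 and 5, a mean of 0.05 ± 0.17 (adjusted p = 0.672), and 0.12 ± 0.21 after correction (adjusted p = 0.405). Gna13 had -0.23, -0.09, -0.07, -0.14 and -0.44, a mean of -0.19 ± 0.15 (adjusted p = 0.102), and -0.18 ± 0.15 after correction (adjusted p = 0.18). Gna13 was negative on 5 of 5 arrays on both scales, as were 20.5% and 14.5% of all named genes, and passed on neither. Its values rest on 2 probes that did not agree as deposited.

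Gnas encodes the subunit that stimulates adenylyl cyclase, and its locus also makes other imprinted transcripts. Its deposited values were 0.37, -0.11, 0.02, 0.32 and 0.19, with a mean of 0.16 ± 0.20 (adjusted p = 0.223). The corrected mean was 0.14 ± 0.18 (adjusted p = 0.31), with the highest values on arrays 4 and 1. The antisense gene Gnasas1 overlaps the locus and had a mean of 0.03 as deposited and 0.19 after correction (adjusted p = 0.134). Which transcripts of the locus the 2 Gnas probes read was not tested.

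In the genes with several probes, probes in different columns of the slide had different means. One Gna13 probe lay in column 2 and had a mean of -0.45, and the other in column 80 had 0.07. For Gnas the probe in column 19 had -0.11 and that in column 98 had 0.42. In a fit of single probes as deposited, limma called the Gna13 probe in column 2 (adjusted p = 0.0345) and the Gnas probe in column 98 (adjusted p = 0.0133), but neither partner. Neither of these 2 called probes passed in the corrected single-probe fit (limma adjusted p = 0.188 and 0.229). After correction the gap between the probes went from 0.52 to 0.19 for Gna13 and from 0.53 to 0.03 for Gnas. For Gnaq it went from 0.21 to -0.15, and for Gnaz, whose probes lie in columns 3 and 34, it stayed at 0.26. The parts of slide position and of the transcript that each probe reads in these gaps were not tested.

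**Figure D4:**
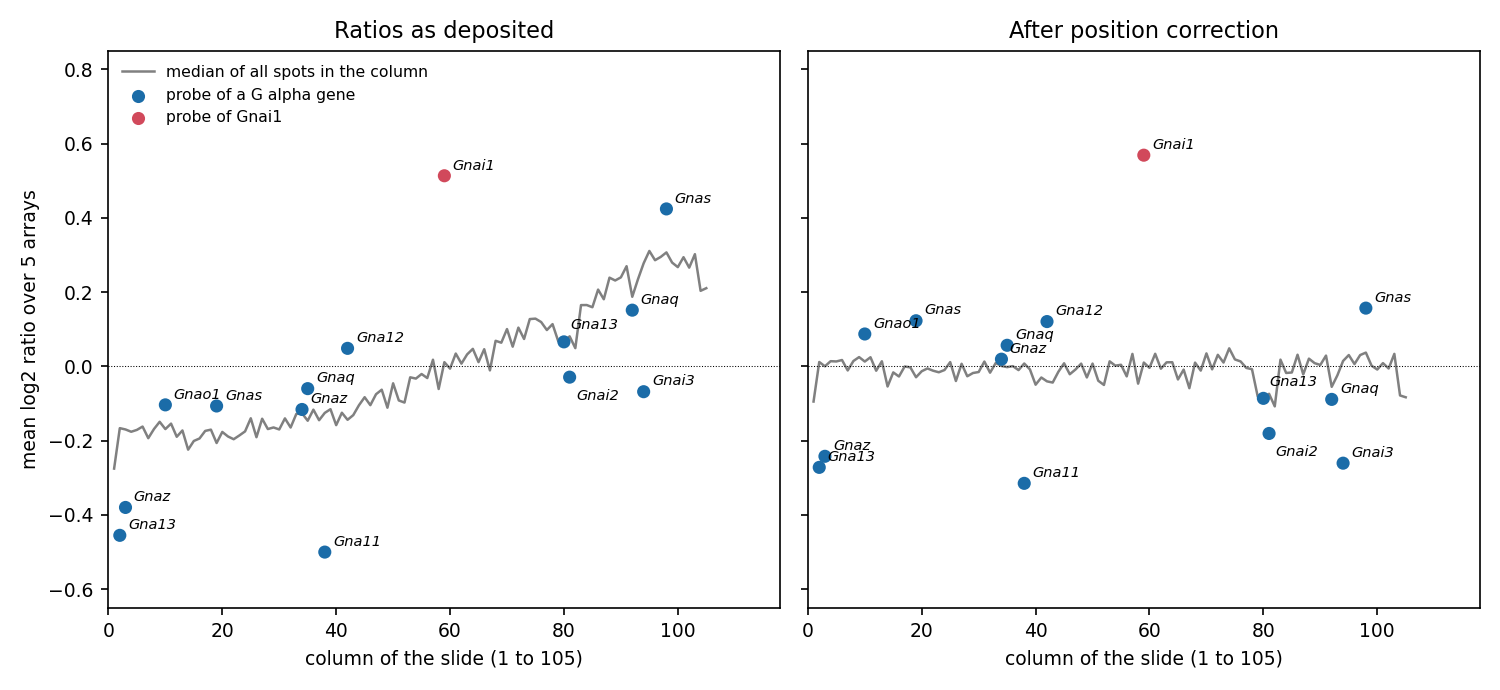
Mean log2 ratio over 5 arrays (vertical axis) of each of the 14 probes of the alpha subunit genes (Gnai1 in red, the rest in blue) against the column of the slide (horizontal axis), as deposited (left) and after position correction (right). The grey line is the median of all spots in a column. As deposited, the Gna13 probes at columns 2 and 80 lie 0.52 apart and the Gnas probes at columns 19 and 98 lie 0.53 apart, and after correction the gaps are 0.19 and 0.03.

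In the genome, 5 of the 10 genes lie beside another alpha subunit gene. Gnai1 neighbours Gnat3, Gnai2 Gnat1, Gnai3 Gnat2, Gnaq Gna14 and Gna11 Gna15, with 1 coding gene between Gnai2 and Gnat1 and 0 between the rest in the RefSeq table of GRCm38.p6. Gnat1 and Gnat2 encode the transducins of photoreceptors, and Gnat3 that of taste cells. Gnat3 was not analysed here. The 4 measured neighbours had corrected means of -0.31 ± 0.74 (Gnat1), 0.44 ± 0.61 (Gnat2), -0.01 ± 0.25 (Gna14) and 0.03 ± 0.14 (Gna15). After correction limma called 0 of them, beside 2.91% of all named genes, with 0 at an unadjusted p under 0.05, beside 27%. As deposited it also called 0, beside 24.8%, and Gna14, with a mean of 0.25, had an unadjusted limma p of 0.032. Hivep3 lies on chromosome 4, and none of the 10 genes does.

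The partners of the alpha subunits were followed in 13 lists, from beta and gamma subunits to receptors, cyclases and kinases, with 105 of 115 genes measured. As deposited, limma called 6 positive and 9 negative, 14.3% of the 105, below the 24.8% of all named genes. After correction it called 0 positive and 3 negative, 2.86%, close to the 2.91% of all named genes. The median log2 ratio of the 105 was -0.03 on both scales. The 3 genes were Prkar1a, Adcy7 and Ric8a, all 3 also called as deposited.

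Prkar1a encodes a regulatory subunit that holds protein kinase A inactive until cAMP binds. It had -0.76, -0.66, -0.59, -0.86 and -0.74 on arrays 1 to 5, a mean of -0.72 ± 0.11 (limma adjusted p = 0.0018), and the corrected mean was -0.51 ± 0.12 (adjusted p = 0.012). Adcy7 encodes an adenylyl cyclase of blood cells. It had -0.43, -0.51, -0.54, -0.41 and -0.49, a mean of -0.47 ± 0.05 (adjusted p = 0.0048), and the corrected mean was -0.44 ± 0.05 (adjusted p = 0.0101). Both were negative on 5 of 5 arrays, and the deposited values of Adcy7 had about the same SD as those of Gnai1. Leaving out array 1, 4 or 5 ended both corrected calls, with adjusted p reaching 0.0909 for Prkar1a and 0.0853 for Adcy7.

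Ric8a encodes a chaperone that folds new alpha subunits of the Gi, Gq and G12 classes. It had -0.53, -0.65, -0.31, -0.36 and -0.44, a mean of -0.46 ± 0.14 (adjusted p = 0.0094), and the corrected mean was -0.34 ± 0.11 (adjusted p = 0.0458). Leaving out array 1, 3, 4 or 5 ended the corrected call, with adjusted p reaching 0.194, and leaving out array 5 ended the deposited one (0.0511). Ric8b, its relative for Gs subunits, had -0.25 ± 0.37 after correction and did not pass (adjusted p = 0.277).

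Beta and gamma subunits, which pair with the alpha subunits, were called as deposited in 2 of 5 and 2 of 12 genes, beside 24.8% of all named genes, and after correction in 0 of either, beside 2.91%. Gnb1 had -0.51 ± 0.23 as deposited and -0.45 ± 0.23 after correction (adjusted p = 0.0146 and 0.055). Gnb4 had -0.53 ± 0.16 and -0.35 ± 0.18 (adjusted p = 0.008 and 0.064). Leaving out array 4 or 5 ended the deposited call of Gnb1, with adjusted p reaching 0.0661. The gamma subunit genes called as deposited were Gng4 (0.46, limma adjusted p = 0.0085) and Gng12 (0.31, 0.0197). After correction they had 0.23 and 0.05 (adjusted p = 0.152 and 0.722). Gng3 and Gng11, with the smallest p after correction, had 0.27 ± 0.14 and 0.18 ± 0.10 and did not pass (adjusted p = 0.0786 and 0.139). They were not called as deposited either.

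Of 19 measured RGS genes, whose proteins speed the splitting of GTP by alpha subunits, limma called 2 positive and 1 negative as deposited, beside 12% and 12.9% of all named genes. After correction it called 0, beside 2.91%, with 5 at an unadjusted p under 0.05, beside 27%. The genes called as deposited were Rgs17 (0.49, limma adjusted p = 0.0066) and Rgs8 (0.31, 0.0491) on the positive side and Rgs2 (-0.48, 0.0124). The Rgs8 call was lost without array 2, 3, 4 or 5, with adjusted p reaching 0.131. The smallest p after correction were those of Rgs8, with 0.43 ± 0.22, and Rgs1, a regulator in lymphocytes, with -0.51 ± 0.29 (adjusted p = 0.0561 and 0.0604). Rgs1 was not called as deposited, with a mean of -0.20 (adjusted p = 0.282). Its probe lay in the last column of the slide, where the median of all spots was 0.21 as deposited and -0.08 after correction.

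Among the effectors and the cAMP pathway, the remaining genes named by the rule did not pass after correction. Of the cyclases Adcy8 had 0.31 ± 0.17 (adjusted p = 0.0754). Of the phosphodiesterases, which break down cAMP, Pde4a had 0.19 ± 0.07 and Pde4b -0.25 ± 0.17 (adjusted p = 0.107 and 0.115). Pde4b was called as deposited, with -0.27 (limma adjusted p = 0.0445). The Pde4b call was lost without array 1, 3, 4 or 5, with adjusted p reaching 0.152. Crem, a transcription factor that answers to cAMP, had -0.48 ± 0.22 as deposited and was called (adjusted p = 0.0155), and had -0.28 ± 0.17 after correction (0.0875). Leaving out array 4 or 5 ended that call, with adjusted p reaching 0.0623. Plcb1 and Plcb2 had 0.19 and -0.06, Arhgef1 and Rhoa -0.19 and -0.16, and the receptor kinases Grk3 and Grk6 0.10 and -0.12 (adjusted p of 0.157 and above).

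Of 10 Gi-coupled receptors of thymocytes, among them Ccr7, Ccr9, Cxcr4 and S1pr1, limma called 0 on either scale, with 4 at an unadjusted p under 0.05 as deposited and 0 after correction, beside 40.3% and 27% of all named genes. Ccr7 had -0.10 ± 0.11 and Cxcr3 -0.26 ± 0.34 after correction (adjusted p = 0.36 and 0.231). Of 3 measured Gs-coupled receptors, Gpr65 had -0.45 ± 0.12 as deposited and was called (adjusted p = 0.0085), a call lost without array 5 (0.0505), and had -0.29 ± 0.14 after correction (0.0725). Ptger2, a prostaglandin receptor, had 0.25 ± 0.16 (adjusted p = 0.107).

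**Figure D5:**
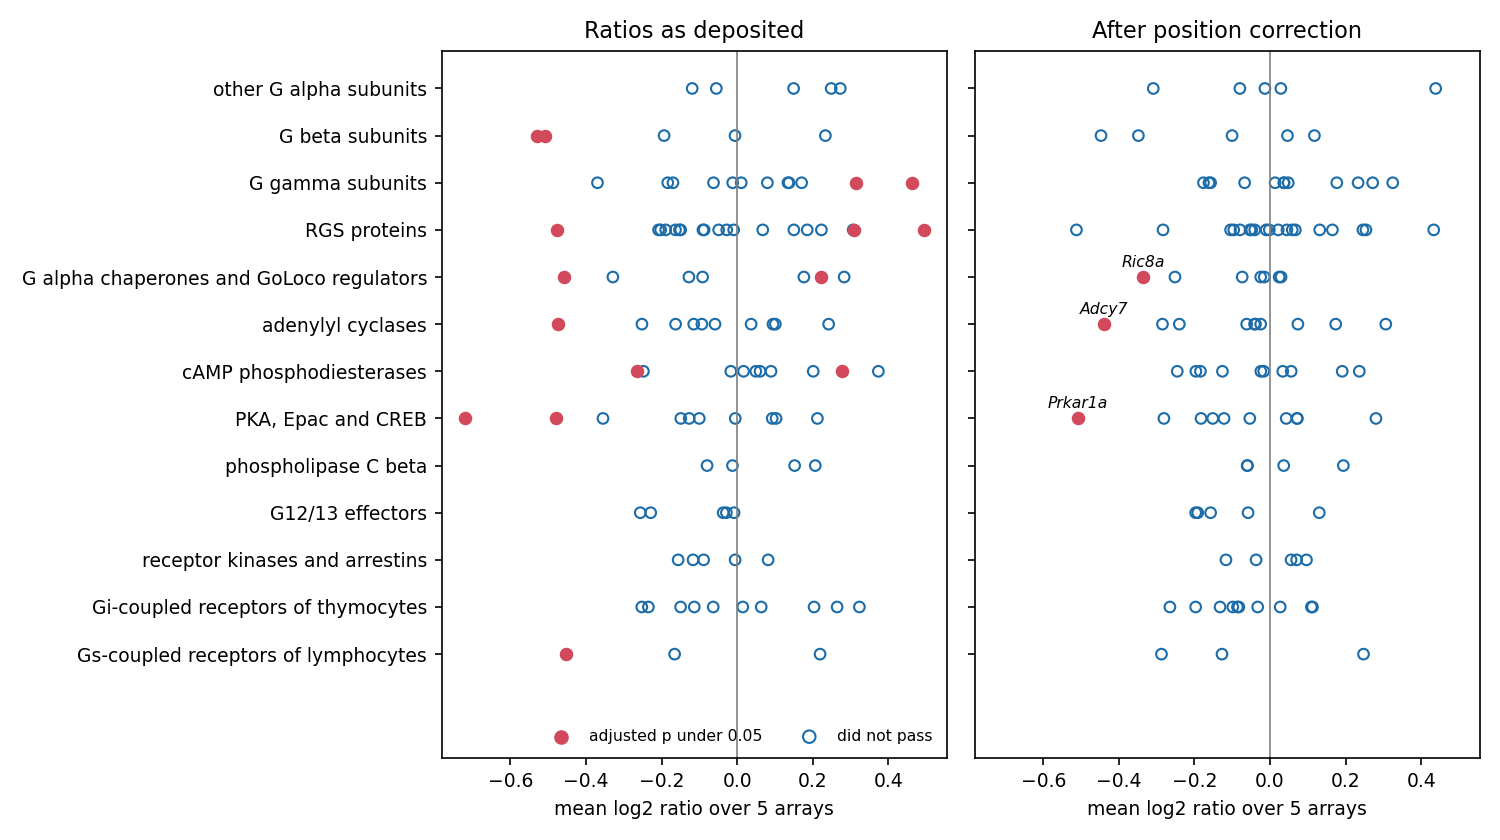
Mean log2 ratio over 5 arrays (horizontal axis) of the 105 measured genes of 13 G protein lists (vertical axis), as deposited (left) and after position correction (right). Filled red points had a limma adjusted p under 0.05 and open points did not. The filled points number 15 on the left and 3 on the right, and those 3 (Ric8a, Adcy7 and Prkar1a) are negative.

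Markers of other cells of the thymus are set beside these values. After correction, the median log2 ratio was 0.10 for 6 genes of thymic epithelium, 0.22 for 4 genes of B cells, -0.33 for 4 of macrophages and neutrophils and -0.0008 for 6 of endothelium and fibroblasts. It was 0.23 for 4 fat genes and 0.08 for 2 red cell genes. The fat genes ran with the arrays, with medians from -0.23 on array 3 to 0.60 on array 5, and so did the red cell genes, from -0.82 on array 5 to 1.46 on array 2. Gnai1 varied from 0.50 to 0.67 over the same arrays. As deposited, limma called 3 of the 4 B cell genes positive, 2 of the 4 macrophage and neutrophil genes negative, 1 of 6 positive in each of the epithelium and the endothelium and fibroblast lists, and 0 of the fat and red cell genes, beside 24.8% of all named genes. After correction it called 1 of all these markers, Foxn1, with a mean of 0.56 ± 0.16 (adjusted p = 0.0135), beside 2.91% of all named genes. The rest of the epithelium list did not pass and went both ways. Krt8 had 0.35, Psmb11 0.14, Krt5 0.07, Aire -0.006 and Epcam -0.09. The part of other cells in the ratio of Gnai1 was not tested.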

How the data were processed

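Total RNA of thymus was measured on 5 arrays in 2 colours. The authors read the images with GenePix and ran lowess normalization on each array in GeneTraffic 2.6, leaving out dim spots, as the series' design text says. The deposited values are log2 ratios, 1 column per array, with 0 missing. The base was read from the values: within 1e-04, 100% were the log2 of a fold with 2 decimals, against 10.6% for log10. Brightness and flags were not analysed here.

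Probe names came from the platform annotation in the exchanged order. That order was settled on the data themselves. Of 18218 probes with 1 gene (16 had several and 4341 none), 18175 matched RefSeq by gene number. Probes of a gene were averaged, giving 20861 features and 16504 genes. An intercept-only limma fit (limma 3.58.1, R 4.3.3) with eBayes tested each feature against 0, and calls were made at a Benjamini-Hochberg adjusted p under 0.05 over the whole array. The 95% intervals are limma's and are not adjusted. The position correction left out the 256 spots below -1.5 on every array.

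The genes, the lists and the rule for named genes were chosen with earlier results of these data known. The rule took every alpha subunit, the list genes called after correction, the 2 smallest p of each list, the 5 genes nearest to Gnai1 and the alpha subunit genes beside a member in the genome. Sequences are RefSeq's. Alternatives were other scalings, windows and probe orders, single probes, other variance estimates and each array left out. The steps were run on simulated data with independent noise, a straight trend across the slide and genes with a known shift. Those data held no dye effect of a probe and no array unlike the others, so they do not test such features here. The sample titles number the arrays and do not say whether each holds other mice. If each holds its own pair of mice, the p-values measure spread between pairs together with technical spread. If RNA was shared between arrays, they measure less than that.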

Additional observations from a re-analysis of the deposited data

How the results depend on the processing

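The mean ratio of Gnai1 was 0.50 to 0.53 as deposited and 0.54 to 0.59 after correction without 1 array. Gnai1 was picked for its positive values on these arrays, so its sign there is no sign of stability. With probe numbers as deposited, which put another spot under the name, it was -0.0084 and -0.12. Those numbers also turned Gna13 to 0.25 and 0.24, Gnas to -0.51 and -0.36, Gnao1 as deposited to 0.41 and, after correction, Gna12 to -0.014 and Gnaq to 0.042.

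Of the other 9 genes, the number called as deposited was 1, and 0 to 1 without 1 array (0 without array 5), 2 with array weights, 3 with single probes and 3 with deposited numbers. After correction it was 0, and 0 without any 1 array, 1 with arrays scaled to a common spread (Gna11, adjusted p = 0.043) and 2 with array weights (Gna11 and Gnai3). Values near 0 turned sign: Gnai2 as deposited, which ran from -0.11 to 0.014 without 1 array (0.014 without array 1 or 5), and after correction Gnaz, from -0.21 to 0.032 (without array 1), and Gnaq, from -0.052 to 0.0058 (above 0 without array 3 or 5), with 0.0086 for a window of 41 spots and 0.0013 for column and row medians.

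Pathway genes called numbered 15 as deposited, 5 to 18 without 1 array (5 and 7 without arrays 5 and 4) and 27 with array weights. After correction they numbered 3, 0 to 7 without 1 array (0 without array 1, 4 or 5 and 7 without array 2), 7 with scaled arrays, 5 among named genes only and 18 with array weights. All genes called numbered 4095 as deposited, 734 to 4763 without 1 array (734, 1348 and 2174 without arrays 5, 4 and 1) and 6231 with array weights. After correction they numbered 481, 23 to 1152 without 1 array (23, 28, 57 and 107 without arrays 5, 4, 1 and 3, and 1152 without array 2), 1043 with scaled arrays and 2899 with array weights. The 1.5-fold criterion took 143 genes, 219 to 393 without 1 array with 3 of 4 arrays needed, 459 with deposited numbers, 40 after correction and 1157 at a fold of 1.3. The cause was not tested, apart from the lower bar of the last setting and of 3 of 4 arrays.

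The fit is already paired, since each array's ratio sets a null beside its wild-type littermate. A fit of separate channels was not run here. Signal over background is not known here, so whether dim spots remain among the values could not be checked.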
